A study of Drosophila melanogaster with 15 samples.

Results

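Microexons were taken here as internal exons, neither first nor last in their isoform, with a length of 30 nt or less in genes with a FlyBase gene ID. Pooled by chromosome, strand, start and end, 188 distinct microexons were found among 45923 distinct internal exons. Length and internal position chose them, so their shortness is no result. Full-length cDNA of wild-type (w1118) *Drosophila melanogaster* had been read on Nanopore devices from 15 libraries, in order to follow each mRNA isoform from its start to its poly(A) site. The 6 libraries of heads came from 3-day-old adults, and in 4 of these 6 cDNA over 3 kb had been size-selected. The other 2 were labelled as not size-selected, a label that no embryo or ovary library had. Embryos aged 14 to 16 h (3 libraries) or 18 to 20 h after egg laying (another 3) were taken in groups of 50 per library. The 3 ovary libraries were made from 20 ovaries each, dissected from virgin females that were also 3 days old. No group was treated.

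All replicates of a tissue, and both embryo ages, had been pooled by the authors into 1 assembly of isoform models. The 3 assemblies gave exon positions on dm6 and no read numbers, so the depth behind a model and the spread between libraries could not be computed and tissues were compared without a test. The study gives heads as the most deeply read tissue. Isoform models count structures, including ones that differ only in their ends, and not mRNA abundance. In parentheses are 95% Wilson intervals, which cover the sampling of exons only. As a check of the labels, all 7 head markers had models in heads (394 models), 5 in embryos (52) and 0 in ovaries. Of 6 ovary markers, 1 had models in heads, 1 in embryos and 4 in ovaries, and the germline genes *nos* and *vas* had none in any assembly. The 5 embryo markers all had models in heads (30) and embryos (35) and none in ovaries, and the 3 muscle markers had 400 models in heads, 143 in embryos and 5 in ovaries. In such mixed tissues, a cell type that is rare and one that makes little of an mRNA cannot be told apart.

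Microexons insert or remove only a few residues, often without a shift of the reading frame, and many lie at protein surfaces. In vertebrate neurons the splicing factor SRRM4 (nSR100) promotes them through UGC motifs before the 3′ splice site, and in flies the related neuronal function is carried by a domain of the *Srrm234* gene. A very short exon leaves little room for exonic enhancers, so its flanking introns matter for its definition.

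The 8 shortest microexons are shown first because they mark the lower limit of exon length in the models. The exon is in capitals and the intron bases beside it are in lower case, 5′ to 3′ on the coding strand, as in the RefSeq copy of the dm6 assembly.

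CG42268, 9 nt: attaaatagAGTCCCAAGgtaatgcaa
PMCA, 12 nt: aacgaccagATTTCAGTACCGgtaagaatt
pum, 12 nt: tctttgcagGTAGGTGACAATgtacgtaac
shi, 12 nt: gtcatccagGAAGGACAAGAGgtttgttaa
Nhe2, 15 nt: gataaagGCCTCAATACAAATGgtacgaa
Rbp9, 15 nt: aaataagATGAACATGCTGCGGgtatgtt
Acyp2, 17 nt: ttgcagGTGTGTTCTTCCGCAAAgtaagt
CG34161, 17 nt: tttcagGTGTCTTCTTTCGCAAGgtaagt

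These lie in coding sequence at chr3L:9735672-9735680 (minus strand) in *CG42268*, chr4:337536-337547 (minus) in *PMCA*, chr3R:9141320-9141331 (minus) in *pum* and chrX:15899444-15899455 (plus) in *shi*. The others are at chr2L:21122913-21122927 (plus) in *Nhe2*, chr2L:2962272-2962286 (plus) in *Rbp9*, chr3R:15792957-15792973 (plus) in *Acyp2* and chr2L:10581424-10581440 (minus) in *CG34161*.

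Each of the 8 was skipped by another model in at least 1 assembly. For any exon, a model was called over it when it had sequence on both sides. It carried the exon when it held exactly these ends, skipped it when an intron spanned it, and had another structure when it overlapped the exon differently. The 9 nt exon of *CG42268* was carried by 1 head model, skipped by 30 and met with another structure in 19, and none of 12 embryo models carried it. The 12 nt exon of *pum*, a translational repressor, was carried by 1 head model and skipped by 43, while 18 embryo and 12 ovary models skipped it and none carried it. In *shi*, which encodes dynamin, 6 head models carried 12 nt and 94 skipped them, against 1 and 16 in embryos and 0 and 7 in ovaries. In *PMCA*, a plasma membrane calcium pump gene, all 24 head models over the exon skipped it, 1 embryo model carried it and 18 skipped it, and both ovary models skipped it. In each of these 4 genes, skipping models far outnumbered carrying ones.

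The 15 nt exon of the sodium/proton exchanger gene *Nhe2* was carried more often, with 32 carrying and 76 skipping models in heads, 2 and 13 in embryos, and 0 and 4 in ovaries. *Rbp9*, of the ELAV family of RNA-binding proteins, had 2 carrying and 39 skipping models in heads, and in embryos and ovaries the models skipped its 15 nt in 6 and 1 cases with none carrying them. The 17 nt exons of *Acyp2*, an acylphosphatase gene, and *CG34161* were each carried by 1 head model and skipped by 1. Their sequences were identical at 14 of 17 positions.

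Further pairs of microexons of equal length were then picked from gene families, a choice made after the lengths had been seen. No search over all families was run. The neuronal calcium sensor genes *Frq1* and *Frq2* and the teneurin adhesion genes *Ten-a* and *Ten-m* are shown with exons in capitals as before.

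Frq1, 25 nt: agTCACAGAGAAAGAAATACGTCAATGgt
Frq2, 25 nt: agTCACTGAAAAGGAAATTCGTCAATGgt
Ten-a, 27 nt: gTCTCTTCTGGAGCTCGTTCACACCTTGg
Ten-m, 27 nt: gCATTTTTTGGAATTATTTCAATGCAAGg

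The *Frq* exons (chrX:18167632-18167656 and chrX:18199124-18199148, both plus strand) were identical at 21 of 25 positions. The teneurin exons (*Ten-a*, chrX:12298169-12298195, plus, and *Ten-m*, chr3L:22301926-22301952, minus) were identical at 14 of 27. In heads *Frq1* was carried by 23 models and skipped by 14, and *Frq2* was carried by 6 and skipped by 8. In embryos these numbers were 3 and 1 for *Frq1* and 3 and 2 for *Frq2*, and ovaries had no model over either exon. *Ten-a* was carried by 4 and skipped by 6 head models, and all 6 embryo models and the 1 ovary model over it skipped it. *Ten-m* was carried by 1 and skipped by 4 head models, carried by 1 and skipped by 7 embryo models, and skipped by the 1 ovary model over it.

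Heads held 180 of the 188 microexons, embryos 115 and ovaries 73. As a share of all distinct internal exons these were 0.407%, 0.419% and 0.348%. A microexon was present in 2.46% of head models (1693), 1.98% of embryo models (369) and 1.12% of ovary models (144). The largest sets were 58 microexons in heads and embryos, 55 in heads only (29.3%, 23.2 to 36.1) and 54 in all 3 assemblies. Heads and ovaries shared 13 more. Among internal exons of 31 to 60 nt, 24.8% were in heads only, and among those over 60 nt 31.6%, so the heads-only share of microexons lay between those of longer exons.

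Only 8 microexons were not carried in heads, and these were chosen for naming after their values were seen. *PMCA* and the dynein heavy chain gene *Dhc64C* had them in embryos only. *CG1677* (an exon also within *lncRNA:CR44357*), *CG18213*, *CG15570*, *Mccc1* and *fry* had them in ovaries only, and *Mitf* in embryos and ovaries. Among these, *CG1677* was carried by 4 ovary models and skipped by 1, and the other 4 ovary exons were carried by 1 model each. In heads, the exons of *PMCA* and *fry* were skipped, and those of *Mitf* and *Mccc1* met only other structures. The other 4 had no head model over them, so heads gave no information on these. Over all assemblies, 23 microexons were carried by a single model, 71 by 10 or more, and the median was 6.

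The 188 exons lay in 182 annotated genes, and 9 genes held more than 1. Chromosome 3L held 42 (0.500% of its internal exons), X 34 (0.482%), 3R 51 (0.443%), 4 had 4 (0.437%), 2L 27 (0.340%) and 2R 30 (0.297%). All 188 had AG before and GT after. In the reference annotation, Ensembl release 115, 187 were present with both ends. The exception was 21 nt in *kra*, a translation regulator gene on 3R. It was carried by 2 and skipped by 27 head models, by 0 and 2 embryo models and by 2 and 5 ovary models.

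By annotation, 145 microexons (77.1%) were inside coding sequence, 35 (18.6%) in 5′ UTRs and 7 at the border of coding sequence, and none was in a 3′ UTR. Internal exons of 31 to 60 nt were in 5′ UTRs in 15.5% of cases and those over 60 nt in 1.92%.

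Lengths clustered on multiples of 3. The most frequent were 30 nt (44 exons), 27 nt (42), 21 nt (23), 24 nt (19) and 18 nt (12), whereas no length between them had more than 9. Just outside the upper limit, 14 exons had 31 nt, 10 had 32 nt and 40 had 33 nt. At 30 nt 39 of 44 exons were skipped, and at 33 nt 32 of 40.

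**Figure D1:**
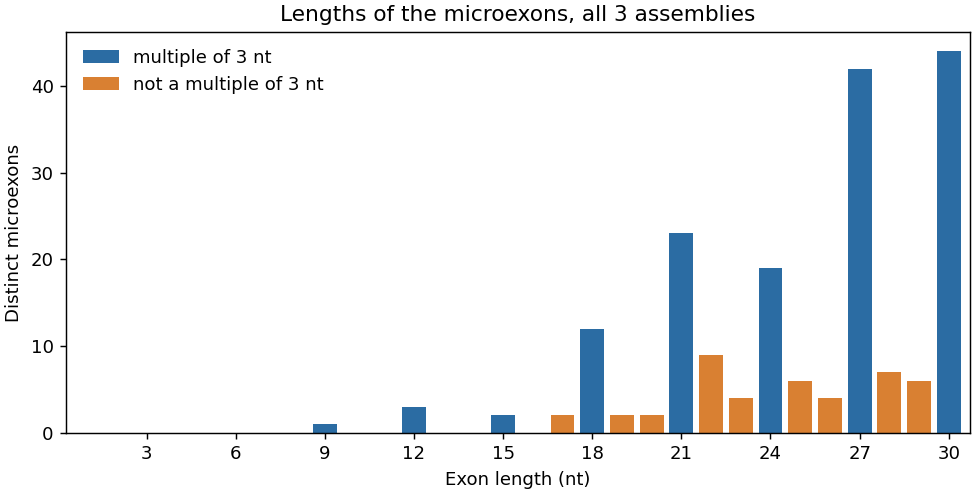
Number of distinct microexons (y axis) at each length in nt (x axis) over the 3 assemblies, with multiples of 3 in blue and other lengths in orange. The blue bars at 27 and 30 nt hold 42 and 44 exons, and no bar lies below 9 nt.

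The first comparison was whether lengths kept the reading frame more often than in longer exons. A length divisible by 3 was found in 146 of 188 microexons, 77.7% (71.2 to 83.0), against 50.3% (47.3 to 53.4) of 1047 exons of 31 to 60 nt and 35.7% (35.2 to 36.1) of 44688 exons over 60 nt. The differences were 27.3 and 42.0 percentage points (two-sided Fisher's exact tests over distinct exons, odds ratios 3.43 and 6.27, p adjusted over 4 comparisons 1.247e-12 and 2.11e-31). Distinct exons were counted in these tests, and exons are no replicates of a tissue.

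Inside coding sequence the share was 84.8% (123 of 145), against 57.5% of exons of 31 to 60 nt and 37.3% of those over 60 nt. In 5′ UTRs, where no frame is at stake, it was 51.4% (18 of 35, 35.6 to 67.0), against 27.2% and 30.97%. The 22 coding microexons outside the frame included 22 nt in *bt*, which encodes the giant muscle protein projectin, and 26 nt in *rhea*, which encodes talin. Both 25 nt exons of the *Frq* pair were also outside it.

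The second comparison was whether microexons were skipped by other isoforms of their gene. In at least 1 assembly 164 of 188 were skipped, 87.2% (81.7 to 91.3), against 52.7% (49.7 to 55.7) of exons of 31 to 60 nt and 15.7% (15.4 to 16.1) of exons over 60 nt. The differences were 34.5 and 71.5 percentage points (two-sided Fisher's exact tests, odds ratios 6.13 and 36.6, adjusted p 1.245e-20 and 6.645e-103). The 24 microexons never skipped had a median of 3.5 models over them, against 30.5 for the skipped ones, and 12 of the 24 were multiples of 3.

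Skipping was seen more often the more models lay over an exon. Of the microexons carried in heads, those with 2 to 5 head models over them were skipped there in 12 of 23 cases, those with 6 to 15 in 55 of 60 and those with 16 or more in 91 of 91. The shares for exons of 31 to 60 nt were 19.8%, 47.4% and 79.5%, and for exons over 60 nt 2.71%, 11.7% and 32.9%. In each of these 3 ranges, microexons had the highest share.

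The shortest annotated exons were rarely recovered, which bears on what counts as skipped. Of 355 annotated internal exons of 30 nt or less, the shortest of 1 nt, 187 were carried in an assembly. In heads, 5 of 95 annotated exons of up to 15 nt with a model over them were carried and 89 were only skipped. At 16 to 18 nt 14 of 30 were carried, at 19 to 21 nt 25 of 37, at 22 to 24 nt 32 of 37, at 25 to 27 nt 49 of 59 and at 28 to 30 nt 54 of 63. At 41 to 60 nt it was 796 of 878. Embryos carried 3 of 86 exons of up to 15 nt and 112 of 193 of 16 to 30 nt, and ovaries 0 of 63 and 72 of 157. Above 21 nt the share did not follow length in each tissue, and in ovaries it was 61.5% at 22 to 24 nt, 39.5% at 25 to 27 nt and 52.1% at 28 to 30 nt. Of the 36 exons of 1 to 6 nt with a head model over them none was carried, an upper limit of 9.64%. Whether reads through such exons had been aligned without them was not tested.

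**Figure D2:**
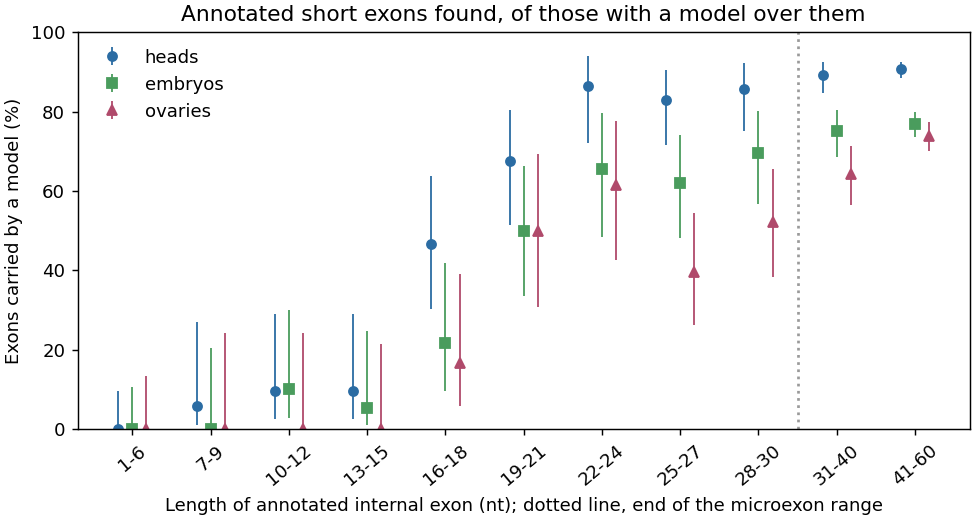
Share of annotated internal exons carried by at least 1 model (y axis, %), of those with a model over them, by exon length in nt (x axis) for heads, embryos and ovaries, with 95% Wilson intervals. In heads the share is 9.52% at 13 to 15 nt, 46.7% at 16 to 18 nt and 86.5% at 22 to 24 nt.

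Skipping was also counted only where the spanning intron itself is in the reference annotation, an alternative chosen after the data had been seen. Then 114 of 188 microexons were skipped, 60.6% (53.5 to 67.3), against 32.2% (29.4 to 35.1) of exons of 31 to 60 nt and 5.73% (5.52 to 5.95) of exons over 60 nt. Of 3493 skipping models over all microexons and assemblies, 2879 (82.4%) used an annotated intron. No annotated transcript skipped 71 of the annotated microexons, and 48 of these were skipped by a model. A read aligned without its microexon could also be placed on an annotated intron. Counting annotated introns therefore does not separate such reads from skipping.

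**Figure D3:**
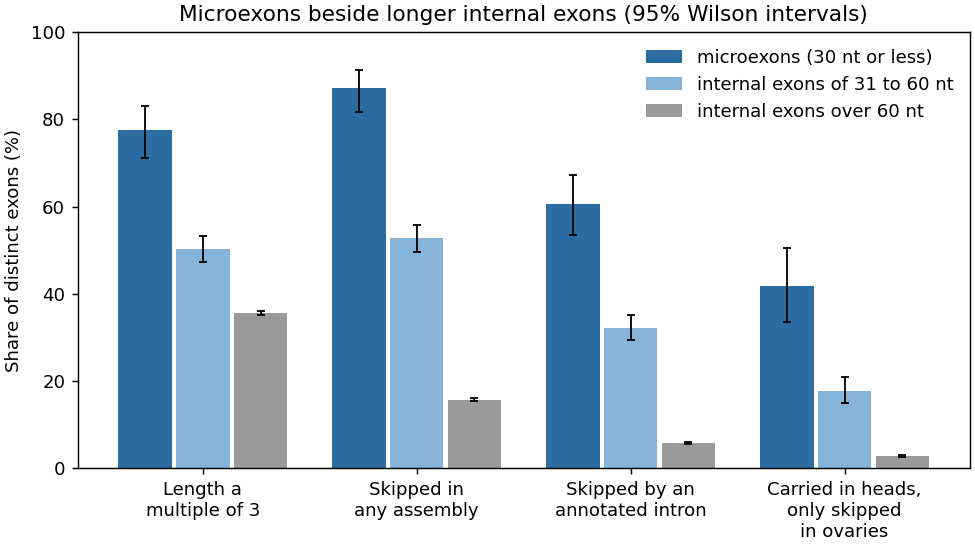
Share of distinct exons (y axis, %) with a length that is a multiple of 3, skipped in any assembly, skipped by an annotated intron, or carried in heads and only skipped in ovaries, for microexons, exons of 31 to 60 nt and exons over 60 nt, with 95% Wilson intervals. Microexons have the highest share in each of the 4 measures, at 77.7%, 87.2%, 60.6% and 41.7%.

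Within a tissue, carrying and skipping models were found side by side. Of the 180 microexons carried in heads, 158 were also skipped there (87.8%), in embryos 82 of 115 (71.3%) and in ovaries 41 of 73 (56.2%). For exons of 31 to 60 nt these shares were 50.3%, 34.3% and 24.8%. Among carrying and skipping models together, the median share that carried a microexon was 50.0% in heads, 33.3% in embryos and 33.3% in ovaries, against medians of 97.6%, 100% and 100% for exons of 31 to 60 nt.

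Carrying and skipping models had start sites in common. In all 158 microexons both carried and skipped in heads, carrying and skipping models shared a transcription start site (5′ ends with gaps of up to 50 nt grouped). Only 53 of these had several start sites among the models, and with a single one sharing was certain. In exons of 31 to 60 nt a start site was shared in 98.4% (219 of 514 had several). In exons over 60 nt it was 95.2% (2656 of 6356 had several). A poly(A) site (3′ ends with gaps of up to 150 nt grouped) was shared in 149 of 158 (94.3%), against 95.9% and 89.5%.

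The most widely carried microexon in heads was 27 nt in *CG10737*, with 87 carrying, 159 skipping and 18 other models. In embryos it had 20, 12 and 5, and in ovaries 5, 2 and 1. A 30 nt exon of *CASK*, a MAGUK scaffold gene of synapses, followed with 61, 75 and 8 in heads, 7, 4 and 4 in embryos, and 2, 4 and 0 in ovaries. Both exons were carried in all 3 tissues, next to skipping models in each. *CASK* and 3 other coding exons with many carrying head models are printed here.

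CASK, 30 nt: CTTTTCAGGATCAGACCCGCTCCGGTGCTT
OtopLa, 21 nt: taagCACACACTGGCCAAGTTTCTGgttt
up, 24 nt: tagAAAACCACCTCAGACACCAGCCGAgta
bt, 22 nt: ctagCTGCTGACGAACCAAAAGAAAAgtaa

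*CASK* is at chr3R:21790709-21790738 (minus strand), *OtopLa* at chrX:5633738-5633758 (minus), *up* at chrX:13597381-13597404 (minus) and *bt* at chr4:726662-726683 (plus). *OtopLa*, an otopetrin proton channel gene, had 41 carrying and 75 skipping models in heads, but 0 and 13 in embryos and no model in ovaries. *up*, the troponin T gene, had 43 carrying and 53 skipping models in heads, 7 and 11 in embryos, and 2 and 0 in ovaries. *bt* had 37 carrying and 6 skipping models in heads, 31 and 9 in embryos, the most carrying models there, and 2 and 0 in ovaries. Both are muscle genes, and *up* is 1 of the 3 muscle markers counted above.

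Other exons with many models were carried in all 3 tissues. *Liprin-gamma*, of a family of synaptic scaffold proteins, had 44 carrying and 14 skipping models in heads, 13 and 3 in embryos, and 1 and 0 in ovaries. *SERCA*, the calcium pump of the endoplasmic reticulum, had an 18 nt exon with 43 and 61 in heads, 7 and 6 in embryos, and 5 and 1 in ovaries. *Pvr*, a receptor tyrosine kinase gene, had 27 nt with 29 and 5 in heads, 23 and 9 in embryos, and 3 and 0 in ovaries. *Ubr1*, a ubiquitin ligase gene, had 18 nt carried by 8 head, 3 embryo and 5 ovary models and skipped by 1 head model alone.

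**Figure D4:**
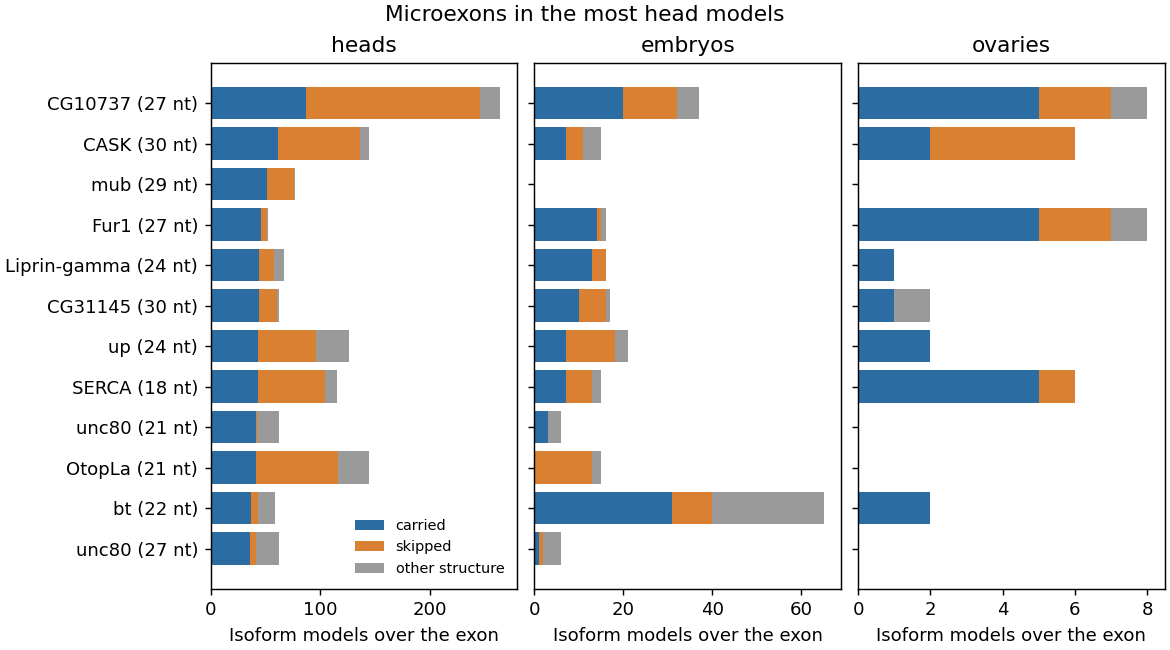
Isoform models over the 12 microexons carried by the most head models (x axis, number of models, with its own scale in each panel) in heads, embryos and ovaries, split into carrying (blue), skipping (orange) and other models (grey). *OtopLa* has 41 carrying models in heads and 0 in embryos, and *mub*, *OtopLa* and *unc80* have no ovary model.

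5′ UTR microexons formed a group with very long introns. The median of the shortest upstream intron was 6223 nt and of the shortest downstream intron 13300 nt, against 300 and 327 nt for coding microexons, and 19 of the 35 had more than 5 kb on both sides. Over all microexons the medians were 382 and 388.5 nt, against 343 and 306 nt for exons of 31 to 60 nt and 92 and 71 nt for exons over 60 nt. In 5′ UTRs, exons of 31 to 60 nt had medians of 5188 and 7231 nt.

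In this group *mub*, a KH-domain RNA-binding protein gene, had a 29 nt exon with 51 carrying and 25 skipping models in heads and no model over it elsewhere. *Fur1*, a furin protease gene, had 27 nt with 46 and 5 in heads, 14 and 1 in embryos, and 5 and 2 in ovaries. *CG31145* had 30 nt with 44 and 16 in heads, 10 and 6 in embryos, and 1 and 0 in ovaries. *heph*, the polypyrimidine tract-binding protein gene, had 30 nt with 6 and 28 in heads, 4 and 2 in embryos, and 9 and 12 in ovaries, the most carrying models of any microexon there. *E2f1*, a cell cycle transcription factor gene, had 28 nt with 6 and 2 in heads, 2 and 0 in embryos, and 5 and 2 in ovaries. These exons, other than that of *mub*, were carried in all 3 tissues.

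TGC, the DNA form of the UGC motif named above, was searched on the exon's own strand in the 20 nt before each exon. It was present in 75 of 188 microexons, 39.9% (33.2 to 47.0), against 34.5% (31.7 to 37.4) of exons of 31 to 60 nt and 32.2% (31.7 to 32.6) of exons over 60 nt. These intervals overlapped for the first pair. By region it was 51.4% (18 of 35, 35.6 to 67.0) in 5′ UTR microexons and 35.9% (52 of 145, 28.5 to 43.9) in coding ones. Exons of 31 to 60 nt had 43.8% and 33.0% in these regions, and exons over 60 nt 31.8% and 31.3%. For coding exons, the shares of both longer classes lay inside the microexon interval.

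The third comparison was between tissues. Of 127 microexons with models over them in heads and ovaries, 53 were carried in heads and only skipped in ovaries, 41.7% (33.5 to 50.4), where the share of all internal exons was 3.26%. For exons of 31 to 60 nt it was 17.7% (14.9 to 20.9) and for exons over 60 nt 2.77% (2.58 to 2.96). With skipping counted through annotated introns only, 52 of the 127 were in this class (40.9%), against 17.4% and 2.46%. The reverse, carried in ovaries and only skipped in heads, was 1 of 127 (all internal exons 0.227%), a 30 nt exon of *fry* with 1 ovary model and 2 head models.

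Heads and embryos could be compared in 163 microexons. Of these, 43 were carried in heads and only skipped in embryos, 26.4% (20.2 to 33.6), where all internal exons gave 2.52%, and 1 the other way, *PMCA* (all internal exons 0.453%). Of 121 compared between embryos and ovaries, 31 were carried in embryos and only skipped in ovaries, 25.6% (18.7 to 34.1), where all internal exons gave 1.89%. In the opposite direction there were 6 of 121, 4.96% (2.29 to 10.4), where all internal exons gave 0.637%. Each exon entered the list through a carrying model, and heads held 180 of the 188, which favours the direction from heads to the other tissues. Longer exons entered in the same way, but they were skipped less often, so fewer of them could fall in these classes. The number of models was highest in heads. Of the 53 exons only skipped in ovaries, 18 had a single ovary model over them and the median was 2, against 23 in heads. The 67 exons carried in both tissues had a median of 3 ovary models over them. Among carrying and skipping head models, the median share that carried was 29.6% for the 53 and 50.0% for the 67. How far skipping within a tissue filled these classes was not tested. The parts of read depth and of the 2 head libraries without size selection were not tested.

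The 53 exons were nearly all coding (50) and multiples of 3 (49, 92.5%). Of the 67 microexons carried in both heads and ovaries, 46 were coding, 17 lay in 5′ UTRs and 50 (74.6%) were multiples of 3. The 2 sets were formed from the models themselves, and no test was made between them.

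In the 113 microexons carried or skipped in each of the 3 tissues, the median share of carrying models was 40% in heads, 33.3% in embryos and 25.0% in ovaries. No model carried the exon in 1 case in heads, 29 in embryos and 53 in ovaries, whereas every model did in 5, 20 and 24. Summed over these exons, 1153 models carried and 1954 skipped in heads, 301 and 590 in embryos, and 128 and 268 in ovaries. In these sums the carrying share differed less between tissues than the medians did. The share was higher in heads than in ovaries in 69 exons, lower in 34 and equal in 10. Since heads held 180 of the 188 listed exons, a low number without a carrying model was built into the list for heads. How far this entry rule shaped the shares was not tested.

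Among the exons carried in heads and only skipped in ovaries, those with the most ovary models were named, and 4 coding ones are printed. More models are more structures and not deeper reading. The named exons include the 12 nt exons of *pum* and *shi*, and ovaries carried 0 of 63 annotated exons of up to 15 nt.

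Moe, 27 nt: gACTGGATCAATGCCGTTTTCGACATGGg
scrib, 30 nt: AGCATAGAAGTAGTTTATGTAAAAACAGAG
Spn, 21 nt: gtagCATTTTGGAAAACAAAATCAGgttg
Ptp10D, 18 nt: atatagAAATGCTAAGTTCGCCGGgtaagc

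*Moe* (moesin, a linker of membrane and actin, chrX:8876033-8876059, minus strand) was carried by 27 and skipped by 47 head models, by 1 and 9 embryo models and by 0 and 12 ovary models. *scrib* (an apicobasal polarity scaffold, chr3R:26579439-26579468, plus) had 12 and 51 in heads, 0 and 26 in embryos, and 0 and 11 in ovaries. *Spn* (spinophilin, chr3L:2514310-2514330, minus) had 2 and 9 in heads, 1 and 2 in embryos, and 0 and 10 in ovaries. Ovary models of these genes were thus all of the skipping form, while in heads both forms were present.

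*Ptp10D* (a receptor tyrosine phosphatase, chrX:11672030-11672047, plus) had nearly equal numbers in heads, with 4 carrying and 5 skipping models, against 1 and 7 in embryos and 0 and 7 in ovaries. *spir*, an actin nucleator gene that acts in oogenesis, had 30 nt with 4 and 30 in heads, 0 and 9 in embryos, and 0 and 8 in ovaries. *klar*, a nuclear positioning gene, had 30 nt with 5 and 14 in heads, 1 and 17 in embryos, and 0 and 7 in ovaries. The septate junction gene *cora* had 30 nt with 9 and 71 in heads, 3 and 37 in embryos, and 0 and 6 in ovaries.

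*Calx*, a sodium/calcium exchanger gene, had 30 nt with 7 and 28 in heads, 2 and 11 in embryos, and 0 and 6 in ovaries. *osp* had 27 nt with 3 and 9 in heads, 1 and 12 in embryos, and 0 and 5 in ovaries. The 20 nt exon in the 5′ UTR of *rdgB*, a phosphatidylinositol transfer protein gene of photoreceptors, had 2 and 53 in heads, 0 and 10 in embryos, and 0 and 6 in ovaries. Against embryos, *shot* (a spectraplakin that links actin and microtubules) had 18 nt with 3 and 11 in heads and 0 and 22 in embryos, and *nrm* had 30 nt with 4 and 21 in heads and 0 and 12 in embryos. In *Moe* 61 of its 68 skipping models in all tissues used an annotated intron, in *scrib* 86 of 88 and in *Spn* 21 of 21.

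**Figure D5:**
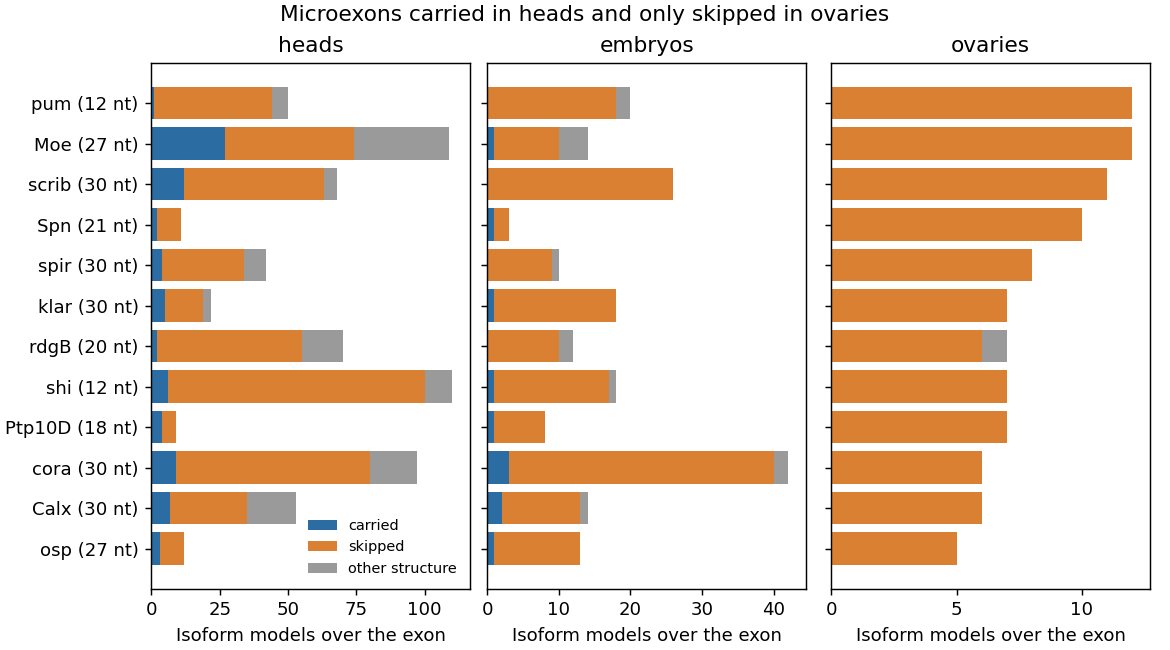
Isoform models over the 12 microexons with the most ovary models among those carried in heads and only skipped in ovaries (x axis, number of models, with its own scale in each panel), split into carrying (blue), skipping (orange) and other models (grey). All ovary bars lack blue, and *Moe* has 27 carrying models in heads against 0 of 12 in ovaries.

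*unc80*, a subunit gene of the sodium leak channel complex, was the only gene with 3 microexons. They lie on 3R in the order 27, 21 and 18 nt.

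unc80, 27 nt: gTTTTGTCAACATGCACCGGGACACCATg
unc80, 21 nt: tcagGAGTCAAAGGAAGCCTGCAAGgtga
unc80, 18 nt: aaccagCTGTCTGCTTGATAGCGGgtgagt

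Their positions are chr3R:27664097-27664123, chr3R:27664416-27664436 and chr3R:27666785-27666802, all on the plus strand. In heads the 27 nt exon was carried by 36 models and skipped by 5, the 21 nt exon by 41 and 1, and the 18 nt exon by 20 and 15. Of 62 head models over all 3, 16 carried all of them, 7 carried the first 2 and skipped the 18 nt exon, and 13 carried the first 2 and had another structure at the third. Another structure at all 3 was found in 12, at the first 2 with the 18 nt exon skipped in 6, and at the first 2 with the 18 nt exon carried in 2. In embryos the 21 nt exon was carried by 3 models and skipped by 0, the 27 nt exon by 1 and 1, and the 18 nt exon by 0 and 4. There was no *unc80* model over them in ovaries. Of the 6 embryo models over all 3, 1 carried the first 2 exons together.

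The other genes with a pair of microexons differed in whether the exons were used together or apart. In *CG34408* (30 and 18 nt) no model carried both exons. Of its 23 head models, 3 carried the first and skipped the second, 1 did the reverse and 8 skipped both. In *Ca-alpha1T*, a T-type calcium channel gene, 17 of 31 head models carried the 30 nt exon (5′ UTR) and the 24 nt exon, 11 carried the 30 nt exon and skipped the other, and 1 did the opposite. In *Mp*, a collagen gene, 21 of 41 head models skipped both exons (30 and 27 nt), 6 carried both, 9 carried the 27 nt exon alone and 1 the 30 nt exon alone. *CG34126* had 8 of 37 head models with both exons (30 and 21 nt), 9 with the first and the second skipped, 3 with the reverse and 3 with neither. In *zip*, nonmuscle myosin heavy chain, 2 of 11 head models carried both 24 nt exons and 5 carried the first alone. *sky* had exons of 30 and 27 nt that shared 1 end, so a model could carry only 1 of them. In heads, 10 models carried the longer, 4 the shorter, and 19 of 37 skipped both.

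Genes of 7 functional lists, chosen with earlier results of these data known, were counted by whether they held a microexon. Cytoskeletal genes gave 8 of 40 (20.0%), where all annotated genes with models under their own ID gave 1.49% (177 of 11848) and those with an internal exon 2.22% (176 of 7916). The 8 were *shot*, *up*, *bt*, the spectrin gene *alpha-Spec*, the dynein gene *Dhc64C*, the myosin V gene *didum*, *Mical* and the kinesin gene *unc-104*. *zip*, also on this list, was not counted, since its microexons described above were deposited under an ID other than its annotated one. In *unc-104* a 27 nt exon had 22 carrying and 41 skipping models in heads, 2 and 6 in embryos, and 0 and 2 in ovaries. In *alpha-Spec* 30 nt were carried by 6 and skipped by 13 in heads, by 6 and 8 in embryos and by 1 and 2 in ovaries.

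RNA-binding and splicing genes gave 5 of 37 (13.5%), namely *mub*, *Rbp9*, *heph*, *pum* and *Rbfox1*. The 21 nt exon of *Rbfox1*, itself a splicing regulator gene, had 36 carrying and 40 skipping models in heads, 10 and 14 in embryos, and 2 and 2 in ovaries. Axon guidance and adhesion genes gave 5 of 39 (12.8%), namely *Lar*, *Ptp10D*, *Cad87A*, *Ten-a* and *Ten-m*. The 24 nt exon at *Lar*, a receptor tyrosine phosphatase gene (annotated for *CG46244* too), had 18 and 9 in heads, 5 and 3 in embryos, and 0 and 1 in ovaries.

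Ion channels and receptors gave 4 of 41 (9.76%), namely *Ca-alpha1T*, *slo*, *Shaw* and *unc80*. In *slo*, the calcium-activated potassium channel gene, 24 nt were carried by 2 and skipped by 50 head models and by 1 and 7 embryo models. In *Shaw*, a voltage-gated potassium channel gene, 30 nt of 5′ UTR were carried by 27 and skipped by 4 head models and by 10 and 1 embryo models. Synaptic vesicle, active zone and endocytosis genes gave 3 of 33 (9.09%), *CASK*, *dlg1* and *shi*, and *dlg1*, a scaffold gene, had 24 nt with 12 and 70 in heads, 3 and 11 in embryos, and 3 and 1 in ovaries. Small GTPase and kinase genes gave 2 of 36 (5.56%), *spg* and *CASK*, and chromatin and transcription genes 1 of 35 (2.86%), *br*. Of the 43 small GTPase and kinase symbols listed, 37 matched the annotation. The kinase gene *Pkc53E*, listed under another spelling, was thus left out of this share. Its 27 nt microexon had 15 carrying and 50 skipping models in heads, 0 and 2 in embryos, and 0 and 1 in ovaries. The lists were not matched to all genes in their number of exons or models, and no test was made of them. *CASK* was on 2 of them. Since the lists were chosen with earlier results known, their shares do not measure enrichment of a function.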

How the data were processed

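Polyadenylated RNA was converted to cDNA and read on Nanopore devices in 15 libraries. The authors merged the replicates of a tissue, mapped reads to dm6 with minimap2, corrected splice sites with short-read junctions and collapsed isoforms in FLAIR, with 5′ ends in the Eukaryotic Promoter Database and a minimum number of full-length reads. For the study's 3′ end filter, its use on these assemblies was not given in the sources used here. Deposited were genomic positions of isoform models and their exons, with no count or level, so depth per sample could not be computed.

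Internal exons of FlyBase genes were pooled by exact ends and set against models of the same gene ID. Exons were named through the identical exon in Ensembl release 115. For 7 microexons a deposited gene ID was absent from that release, and 4 lay in more than 1 annotated gene. Annotation region, flanking sequence (RefSeq copy of the assembly) and ends were read by coordinates. Shares have 95% Wilson intervals. Fisher's exact tests were two-sided, with Benjamini-Hochberg adjustment over 4 comparisons and a threshold of 0.05. Scripts were tested on simulated models and run with scipy 1.17.1, statsmodels 0.14.6, pandas 2.3.3, numpy 2.4.6 and matplotlib 3.10.9 in Python 3.11.15.

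Named microexons were the 12 in the most head models, 5 in embryos and 5 in ovaries, the 8 shortest, and the 12 (heads against ovaries) or 5 (other pairs) with the most models in the skipping tissue. The rule also named genes with 4 or more microexons and microexons of *Glut1*, *Mvl*, *wun*, *ttv*, *orb* and *elav*, and found none. Genes with several microexons, members of the gene lists and single exons of interest were added after their values were seen. The microexons, lists and rules were chosen with earlier results of these data known. Sequence was printed for coding exons outside 2R.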

Additional observations from a re-analysis of the deposited data

How the results depend on the processing

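Of 87 alternative values, 80 kept their direction and side of the threshold or stayed within the interval, and 7 moved. A lower length of 3 nt, AG and GT required, and loci with other IDs included each left the same 188 microexons. The microexon shares under these settings could not move, although they are counted among the 80. An upper length of 50 nt gave 770 exons, of which 54.4% were multiples of 3, 66.2% were skipped and 27.9% were carried in heads and only skipped in ovaries. Requiring 2 or more models gave a heads-only share of 23.0%, since exons in 1 model can be in 1 assembly only. With coding exons only, 84.8% were multiples of 3, and with annotated skipping introns only, 60.6% were skipped, both chosen after the data were seen, as was the restriction to exons with 3 to 10 head models. Over all alternatives run, microexons exceeded exons of 31 to 60 nt by 27.1 to 28 points in multiples of 3 (highest adjusted p 1.391e-09) and by 28.5 to 45.0 points in skipping (1.054e-09). They exceeded exons over 60 nt by 40.6 to 47.5 points (1.738e-22) and by 54.9 to 81.0 points (1.076e-40). No paired analysis was possible because the authors pooled the replicates and the values carry no library, and for the same reason no replicate could be left out. The assemblies hold no read numbers, so the depth behind a count of models could not be computed, and its part in the counts was not tested.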
